A study of Bos taurus with 90 samples.

Results

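Of the 3 miRNAs taken as markers of stratified epithelium, miR-205 and miR-31 had rows in the tables and were described here across 5 tissues of dairy cows, and miR-203 was not analysed here. Members were matched by name, and they were 2 of the 388 miRNAs listed in any tissue. Small RNA had been sequenced from rumen epithelium, duodenum epithelium, jejunum epithelium, liver and mammary gland of 18 mid-lactation Chinese Holstein cows, and each of the 3 diets, named after the forage (rice straw, corn stover, alfalfa hay), had 6 samples per tissue. That gave 90 samples in 15 groups of 6, and no other diet served as a control. miR-31 was listed in all 5 tissues, and miR-205 was listed in 4, having no row in jejunum. Values are in CPM, the reads of a miRNA scaled to the reads mapped to all annotated miRNAs of the sample.

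miRNAs are short RNAs that pair with messenger RNAs and lower their translation or stability. miR-205 is known as a miRNA of basal and stratified epithelial cells such as keratinocytes, where it helps to keep epithelial identity, partly together with the miR-200 family by targeting the repressors ZEB1 and ZEB2. miR-31 is known from keratinocyte growth, wound repair and the regeneration of intestinal epithelium, and is expressed well beyond stratified epithelia. The rumen is lined by a keratinised stratified squamous epithelium, the duodenum and jejunum by a single layer of columnar cells, and the mammary gland by luminal secretory cells over a basal layer of myoepithelial cells. In the RefSeq annotation of the bovine assembly ARS-UCD2.0, MIR205 overlapped no other gene and had CAMK1G and LOC104974529 as its nearest neighbours, and MIR31 overlapped the protein coding gene IFNE, for interferon epsilon.

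The mapped reads implied by the values ranged from 937556 to 15621501 per sample, with a median of 5778304.5, so that 3 reads were worth between 0.192 and 3.20 CPM. Limits set by these totals cover counting error only. miR-122, the hepatocyte miRNA, ranged from 8671 to 12721 CPM in liver and from 0 to 48.5 CPM in mammary gland, and the intestinal miR-192, miR-194 and miR-215 together reached at least 144396 CPM in duodenum and jejunum and at most 4561 CPM in rumen and mammary gland. In liver these 3 together ranged from 122056 to 195995 CPM, which overlapped jejunum (144396 to 305331 CPM), so they do not tell liver from jejunum. With both members left out of the comparison, 5 libraries stood apart from the others of their tissue, namely mammary gland rice straw replicates 1, 4 and 5, mammary gland alfalfa hay replicate 1 and liver alfalfa hay replicate 2. Their median Spearman correlation with the other 17 libraries of the tissue lay more than 5 scaled median absolute deviations under the tissue median. The mammary libraries among them were also the shallowest of that tissue, with 937556 to 2624975 mapped reads against at least 4421565 in the others. The part of depth in their values was not tested. Jejunum replicates 1, 2 and 6 of cows fed corn stover did not meet that limit but differed from the other 15 in miR-196a and miR-10a, as given beside miR-31. Differences of the members that rest on these libraries are also given without them.

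miR-205 was an abundant miRNA of rumen, lower in mammary gland and close to the limit of detection in duodenum and in most livers. In rumen it ranged from 25428 to 37098 CPM with rice straw, with a median of 28934 CPM. With corn stover it ranged from 24899 to 44896 CPM around a median of 30722 CPM, and with alfalfa hay from 23016 to 52132 CPM around 38272 CPM. The 3 diets overlapped throughout, and over all rumen samples the mean was 33692 ± 7808 CPM (SD, n = 18). That was 3.37% ± 0.781 (SD, n = 18) of mapped miRNA reads, and miR-205 ranked 7 among the 340 miRNAs listed in rumen.

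In mammary gland miR-205 ranged from 768 to 8442 CPM with rice straw around a median of 2927 CPM, from 1525 to 6032 CPM with corn stover around 4297 CPM, and from 860 to 3633 CPM with alfalfa hay around 2524 CPM. The mean was 3456 ± 2027 CPM (SD, n = 18), which put miR-205 at rank 35 of 328 listed miRNAs. The coefficient of variation was 58.6% in mammary gland and 23.2% in rumen. Both the lowest value (rice straw replicate 1, 768 CPM) and the highest (rice straw replicate 4, 8442 CPM) came from libraries that stood apart, as did the second lowest, alfalfa hay replicate 1 with 860 CPM. Without the 4 such libraries the range was 1525 to 6296 CPM and the mean 3459 ± 1542 CPM (SD, n = 14).

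**Figure D1:**
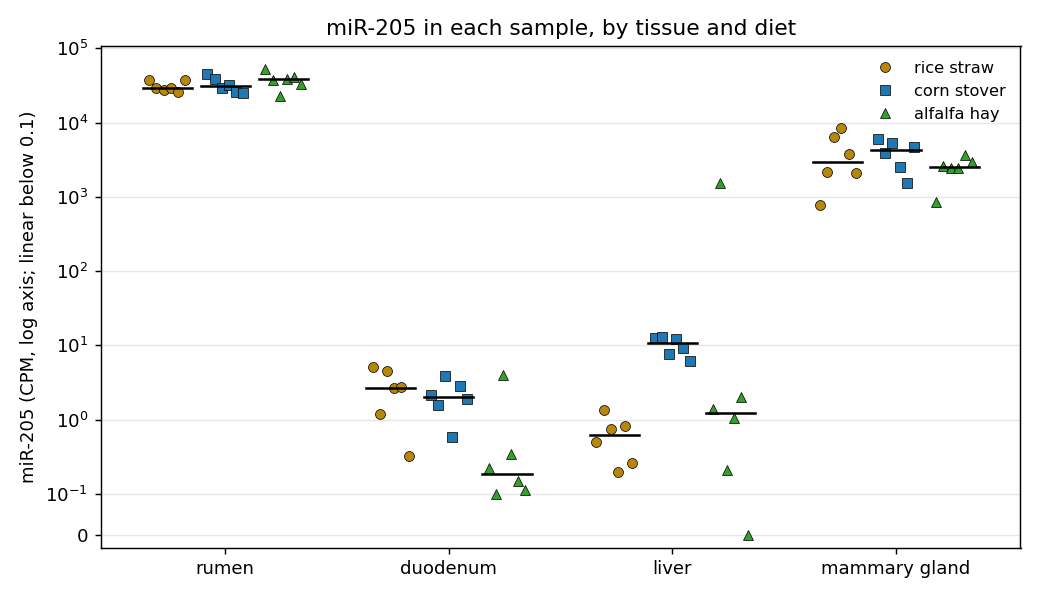
miR-205 in each of the 72 samples of the 4 tissues that list it, in CPM on a log axis that is linear below 0.1 CPM, with 6 points per diet and black bars at the group medians. All 18 rumen samples lie between 23016 and 52132 CPM, above every mammary sample, and 1 liver sample with 1525 CPM lies apart from the other 17.

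In duodenum and liver miR-205 rested on few reads. Duodenum samples held 1 to 71 reads of it, which came to 0.324 to 5.07 CPM with rice straw (median 2.68 CPM), 0.582 to 3.90 CPM with corn stover (median 2.00 CPM) and 0.0990 to 3.96 CPM with alfalfa hay (median 0.187 CPM). In 7 of the 18 duodenum samples, 5 of them from cows fed alfalfa hay, miR-205 had 3 reads or fewer. In liver it ranged from 0.198 to 1.36 CPM with rice straw (median 0.619 CPM), from 6.24 to 13.0 CPM with corn stover (median 10.8 CPM) and from 0 to 1525 CPM with alfalfa hay (median 1.23 CPM). The liver sample with 0 reads, alfalfa hay replicate 6, could have held up to 0.631 CPM at its depth. The jejunum tables gave no value for miR-205. All rows of a jejunum library left 44.9 to 440 CPM of its reads unaccounted for, and that remainder is the most that any miRNA without a row could take.

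The order of miR-205 levels was rumen, mammary gland, then liver and duodenum. The lowest rumen sample exceeded the highest mammary sample 2.73-fold, and the share of all miRNAs without overlap between these tissues is not given here. limma on log2(CPM + 1), with Benjamini-Hochberg adjustment over all miRNAs tested in the comparison, gave a difference of 3.50 ± 0.22 (log2, SE, 18 samples against 18) between rumen and mammary gland (adjusted p = 4.64e-18). The difference was 13.71 ± 0.21 between rumen and duodenum (adjusted p = 2.65e-39) and 12.81 ± 0.56 between rumen and liver (adjusted p = 4.83e-23). In both comparisons it was the largest of all miRNAs tested. These folds are on a scale with 1 CPM added, which understates the distance from a tissue with values near 0.

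Tissue differences passed the test for most miRNAs, so a call by itself says little about a member. Among all miRNAs tested, 71.9% differed between rumen and mammary gland, 75.8% between rumen and duodenum and 84.5% between rumen and liver. Mammary gland also exceeded duodenum and liver in miR-205. Duodenum minus mammary gland was -10.21 ± 0.29 (log2, limma adjusted p = 6.03e-31), where 75.9% of miRNAs were called, and liver minus mammary gland was -9.31 ± 0.57 (adjusted p = 1.53e-18), where 65.0% were called. Without the libraries that stood apart the difference was 3.38 ± 0.16 for rumen minus mammary gland, 13.31 ± 0.32 for rumen minus liver, -10.33 ± 0.26 for duodenum minus mammary gland and -9.93 ± 0.37 for liver minus mammary gland. Duodenum and liver were neighbours whose difference did not pass the limma test, at -0.90 ± 0.58 for duodenum minus liver with a 95% interval from -2.08 to 0.28 (adjusted p = 0.147), or -0.40 ± 0.37 without the liver library that stood apart, while 85.0% of the miRNAs tested there were called. Taken by diet, duodenum minus liver was 1.05 ± 0.33 in cows fed rice straw (adjusted p = 0.00901) and -1.86 ± 0.26 in cows fed corn stover (adjusted p = 8.83e-06, limma with 6 samples against 6), and the difference between these diets was not tested. In cows fed alfalfa hay it was -1.87 and did not pass, with the liver library that stood apart among the samples. In bulk tissue, fewer cells of a type and less RNA per cell cannot be told apart, and this holds for every level given here.

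Within rumen, no diet difference of miR-205 passed the limma F test over the 3 diets (adjusted p = 0.598, with 1.49% of 335 miRNAs called). Rice straw minus corn stover was -0.07 ± 0.18, rice straw minus alfalfa hay -0.26 ± 0.18 and corn stover minus alfalfa hay -0.19 ± 0.18, all in log2 with SE, and the interval of the largest ran from -0.64 to 0.12. Within mammary gland, rice straw minus corn stover was -0.28 ± 0.49, rice straw minus alfalfa hay 0.38 ± 0.49 and corn stover minus alfalfa hay 0.66 ± 0.49 (F test, adjusted p = 0.555, with 3.72% of 323 miRNAs called). The interval of that last difference, -0.34 to 1.67, was wider than any in rumen. Without the libraries that stood apart these 3 differences were -0.24 ± 0.40, 0.14 ± 0.42 and 0.38 ± 0.34 (adjusted p = 0.701). Whether the diet differences differed between rumen and mammary gland was tested as an interaction, which did not pass for miR-205 (limma, adjusted p = 0.418, with 8.58% of 303 miRNAs called). For corn stover minus alfalfa hay it was 0.86 ± 0.54, mammary gland minus rumen, and 0.57 ± 0.39 without those libraries.

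Within duodenum, rice straw minus alfalfa hay was 1.14 ± 0.39 and corn stover minus alfalfa hay 0.99 ± 0.39 in miR-205, and the F test did not pass (limma, adjusted p = 0.354). No duodenum miRNA passed (0% of 336 called, with 36 at an unadjusted p under 0.05, and also none by limma-voom on the recovered reads). Alfalfa hay replicate 3, with 3.96 CPM, lay apart from the other 5 of its group, which had 0.0990 to 0.341 CPM. Without it and the other duodenum sample that lay apart in a member (corn stover replicate 4, for miR-31), miR-205 was the 1 miRNA called (adjusted p = 0.0408), at 1.48 ± 0.31 for rice straw minus alfalfa hay and 1.52 ± 0.32 for corn stover minus alfalfa hay. The sample left out had been picked by its own miR-205 value, and the remaining 5 alfalfa hay samples held 1 or 2 reads each.

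In liver all 6 corn stover samples, with 20 to 56 reads of miR-205 each, lay above all 6 rice straw samples, which had 1 to 5 reads. They lay above 5 of the 6 alfalfa hay samples too, which had at most 2.05 CPM. The alfalfa hay sample that went the other way, replicate 2, held 10641 reads of miR-205, or 1525 CPM. With all 18 livers the F test did not pass (limma, adjusted p = 0.853), nor did any other miRNA (0% of 326 called, with 17 at an unadjusted p under 0.05, and also none by limma-voom). Replicate 2 was also the liver library that stood apart in the other miRNAs, by 5.05 scaled deviations against the limit of 5. Without it miR-205 was the 1 of 326 miRNAs that passed (adjusted p = 1.59e-06), at -2.76 ± 0.27 for rice straw minus corn stover and 2.60 ± 0.29 for corn stover minus alfalfa hay, while rice straw minus alfalfa hay was -0.16 ± 0.29. The sample left out is the one that goes the other way in the value tested, and was looked for by its high miR-205, so this p rests on that choice. The separation of the corn stover from the rice straw livers does not involve that sample, but the share of the 326 miRNAs that separate these livers in the same way is not given here. The mean in corn stover livers was 10.2 ± 2.87 CPM (SD, n = 6), and in the other livers without replicate 2 it was 0.781 ± 0.634 CPM (SD, n = 11). The summed level of the 5 miRNAs of the miR-200 family list (miR-200a, miR-200b, miR-200c, miR-141 and miR-429) did not set the corn stover livers apart. It ranged from 360 to 737 CPM there and from 325 to 660 CPM with rice straw. This list had been drawn up for simple and glandular epithelium. Its median sum was nevertheless 18451 CPM in rumen, above 11082 CPM in duodenum and 7725 CPM in jejunum, so it does not mark simple epithelium here. The 7 miRNAs enriched in rumen in these data ranged from 2756 to 3144 CPM in sum with corn stover and from 2887 to 3796 CPM with rice straw, within the range of that diet or below it. The highest sums of several other lists were also higher with corn stover, with overlapping ranges. The keratinocyte-associated list ranged from 3619 to 9741 CPM with corn stover and from 3453 to 4822 CPM with rice straw (medians 4557 and 4137 CPM), and the list enriched in mammary gland from 521 to 1532 CPM and from 524 to 684 CPM (medians 637 and 578 CPM). Their part in the miR-205 values was not tested.

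Liver alfalfa hay replicate 2 differed from the other 17 livers in many miRNAs besides miR-205. Leaving out both members, it was the highest of the 18 livers in 72 of 328 miRNAs, and no other liver was highest in more than 48. All 5 miRNAs of the miR-200 family list were above the other 17 livers, with a sum of 1896 CPM against 247 to 737 CPM. miR-200c was at 166 CPM against at most 37.9 CPM, miR-141 at 1038 CPM against at most 421 CPM, and miR-429 at 293 CPM against at most 102 CPM. In the same library, 5 of the 7 miRNAs enriched in rumen in these data were above the other livers, with a sum of 7218 CPM against 2530 to 3796 CPM. miR-378, which lies in the gene PPARGC1B and is abundant in cells rich in mitochondria, was among them at 4368 CPM against at most 1503 CPM. Of the 6 immune cell miRNAs, 4 were above the other livers (12681 CPM in sum against 4797 to 9911 CPM), and miR-375, known from endocrine and some epithelial cells, was at 475 CPM against at most 165 CPM.

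Other lists did not set that library apart as a whole. The 4 listed miRNAs enriched in mammary gland in these data summed to 901 CPM, within the 461 to 1532 CPM of the other livers. The 9 listed keratinocyte-associated miRNAs other than the members summed to 5856 CPM, within 3266 to 9741 CPM, with miR-210 alone above the other livers. miR-122 was at 11014 CPM, within the 8671 to 12721 CPM of the others, and miR-31 at 875 CPM, within 390 to 957 CPM. The blood cell list, at 6580 CPM, and the striated muscle list, at 148 CPM with 4 of 6 miRNAs listed, were within the range of the other livers in sum. So was the intestinal epithelium list, at 141606 CPM. Single members of these 3 lists were above the other livers. They were miR-451 at 2471 CPM against at most 1707 CPM, miR-499 at 7.31 against at most 4.97 CPM, and miR-215 at 1433 against at most 1104 CPM. The part of any of these miRNAs in the miR-205 value was not tested.

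**Figure D2:**
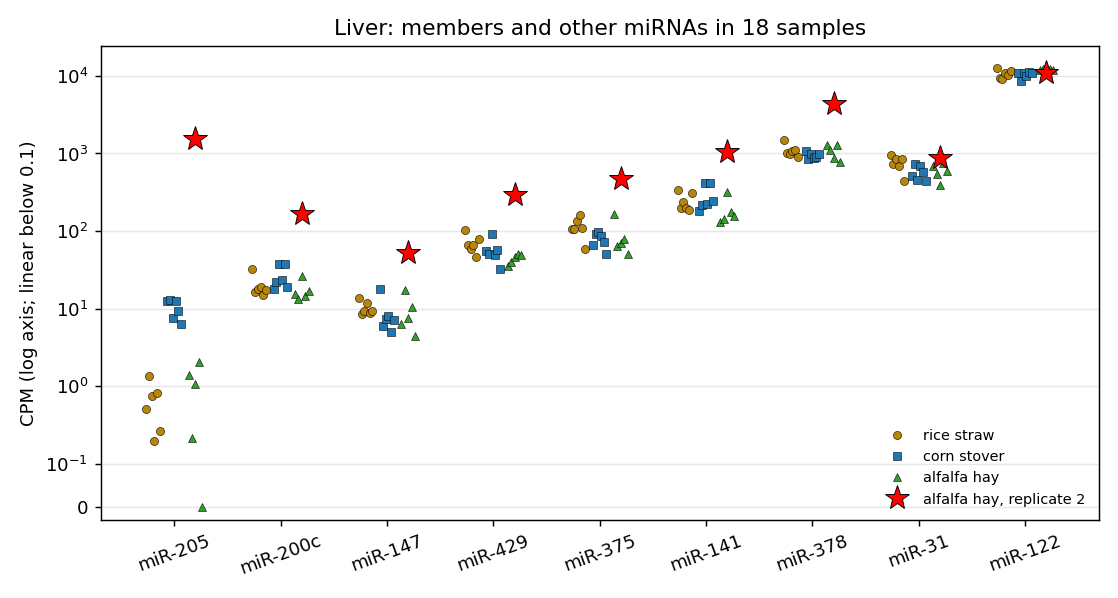
CPM of both members and 7 other miRNAs in the 18 livers on a log axis that is linear below 0.1 CPM, with points by diet and a red star for alfalfa hay replicate 2. The star lies above the other 17 livers in miR-205 (1525 CPM) and in miR-200c, miR-147, miR-429, miR-375, miR-141 and miR-378, and among them in miR-31 (875 CPM) and miR-122 (11014 CPM).

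miR-31 was present in every sample of every tissue and highest in rumen, below the miR-205 level there. In rumen it ranged from 3913 to 6388 CPM with rice straw (median 4406 CPM), from 3706 to 6592 CPM with corn stover (median 4272 CPM) and from 2564 to 6836 CPM with alfalfa hay (median 3718 CPM). The mean was 4519 ± 1282 CPM (SD, n = 18), rank 31 of 340. Every rumen sample exceeded every sample of the other 4 tissues, the closest of which was a mammary sample with 1046 CPM. The share of all miRNAs that separate rumen in this way is not given here, so the separation alone does not mark miR-31.

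The other 4 tissues overlapped in miR-31. Liver ranged from 390 to 957 CPM with a mean of 654 ± 170 CPM (SD, n = 18), and mammary gland from 111 to 1046 CPM with a mean of 523 ± 254 CPM (SD, n = 18). Duodenum ranged from 104 to 484 CPM (mean 332 ± 96.2 CPM) and jejunum from 8.13 to 478 CPM (mean 278 ± 140 CPM, both SD, n = 18). The 2 lowest mammary values, 111 CPM in rice straw replicate 1 and 131 CPM in alfalfa hay replicate 1, came from libraries that stood apart, and without the 4 such libraries the mammary mean was 591 ± 217 CPM (SD, n = 14).

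Rumen exceeded the other tissues in miR-31 by 3.78 ± 0.15 against duodenum (adjusted p = 4.17e-24), 4.48 ± 0.40 against jejunum (adjusted p = 4.68e-13), 2.78 ± 0.13 against liver (adjusted p = 1.06e-21) and 3.26 ± 0.23 against mammary gland (adjusted p = 9.67e-17), in log2 with SE and limma over all miRNAs tested. Without the 3 jejunum libraries with high miR-196a the difference from jejunum was 3.76 ± 0.14, at rank 11 of 313 by size, and without the libraries that stood apart that from mammary gland was 2.97 ± 0.17 and that from liver 2.81 ± 0.13. Of the 313 miRNAs tested between rumen and jejunum, 73.8% were called. By size of difference miR-31 stood at rank 12 of 314 against duodenum, 8 of 313 against jejunum, 36 of 304 against liver and 18 of 303 against mammary gland. Other scaling moved all miRNAs of rumen against liver together: the median difference shifted by -0.66 with upper-quartile and by -0.48 with trimmed-mean scaling, and the miR-31 difference was then 2.04 and 2.23.

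Among the lower tissues, liver exceeded both intestinal tissues in miR-31. Duodenum minus liver was -1.01 ± 0.15 (limma adjusted p = 6.76e-08) and jejunum minus liver -1.71 ± 0.39 (adjusted p = 0.000142, with 85.3% of 307 miRNAs called), and without the liver library that stood apart they were -0.98 ± 0.15 and -1.68 ± 0.40. Liver minus mammary gland, neighbours in the order, was 0.49 ± 0.22 and did not pass (adjusted p = 0.0534), though it passed with upper-quartile (0.80) and trimmed-mean scaling (0.57), and it was 0.17 ± 0.16 without the libraries that stood apart. Duodenum minus mammary gland was -0.52 ± 0.24 (adjusted p = 0.0446) and -0.81 ± 0.18 without those libraries, but 0.14 ± 0.43 in cows fed rice straw (adjusted p = 0.808). Jejunum minus mammary gland was -1.22 ± 0.42 (adjusted p = 0.0102, with 70.5% of 312 miRNAs called), or -1.51 ± 0.45 without the mammary libraries that stood apart, and duodenum minus jejunum was 0.70 ± 0.40 (adjusted p = 0.218, with 24.2% of 331 called). The jejunum differences were larger in size with 3 low libraries than without them.

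**Figure D3:**
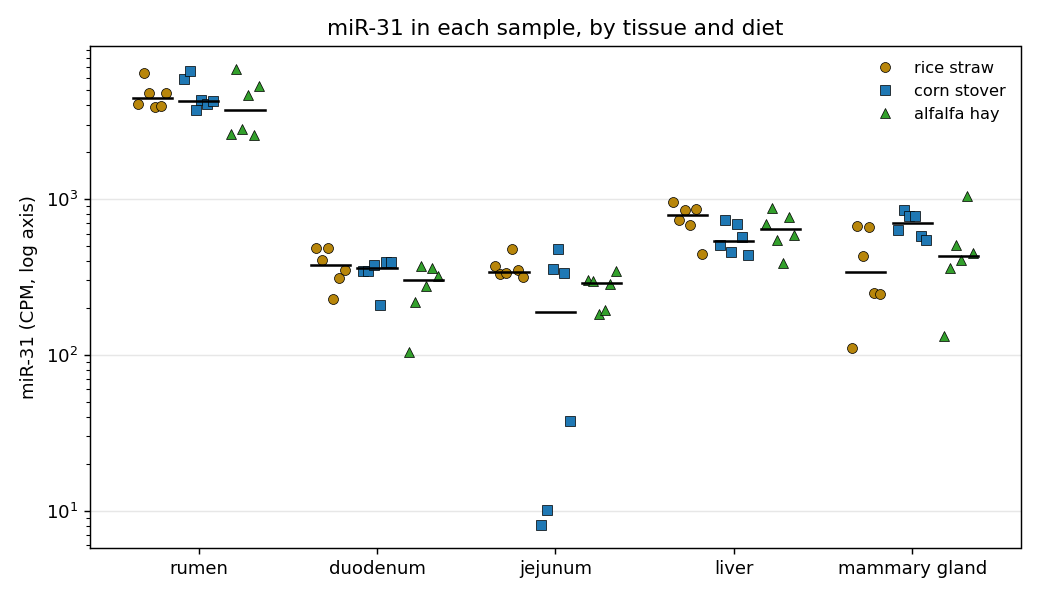
miR-31 in each of the 90 samples, in CPM on a log axis, with 6 points per diet in each of the 5 tissues and black bars at the group medians. All 18 rumen samples lie between 2564 and 6836 CPM, above every other sample, and 3 corn stover samples of jejunum lie between 8.13 and 37.7 CPM, below all others.

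In jejunum, miR-31 ranged from 315 to 476 CPM with rice straw (median 340 CPM) and from 183 to 346 CPM with alfalfa hay (median 290 CPM). With corn stover the samples fell into separate parts: replicates 3, 4 and 5 had 354, 478 and 337 CPM, within or above the other diets, and replicates 1, 2 and 6 had 8.13, 10.1 and 37.7 CPM. The 3 low libraries were not shallow, with 8450724 to 9838915 mapped reads. They were also the 3 jejunum libraries with high miR-196a, a miRNA of the HOX gene clusters, at 197 to 324 CPM against 4.21 to 27.7 CPM in the other 15. miR-10a, also from a HOX cluster, was at 83090 to 95217 CPM against 26636 to 47729 CPM, and miR-99a-5p was lower, at 88.5 to 144 CPM against 254 to 715 CPM. miR-10b, a close family member of miR-10a, did not set the 3 libraries apart, at 54610 to 69678 CPM within the 16480 to 75615 CPM of the other 15. miR-146a and miR-7 lay below the other 15 as well. The reads left unaccounted for by the listed miRNAs were 221 to 440 CPM in these 3 libraries and 44.9 to 72.6 CPM in the other 15.

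The intestinal epithelium list did not set the 3 libraries apart, with 157044 to 305331 CPM in sum against 144396 to 298094 CPM. Nor did the miR-200 family list (7267 to 10702 CPM against 4714 to 9966 CPM). The immune cell list was lower in sum, at 19730 to 22251 CPM against 23874 to 37150 CPM, with 1 of its 6 miRNAs below the other 15 in all 3. The 4 listed miRNAs enriched in mammary gland in these data summed to 118 to 181 CPM against 280 to 766 CPM, with 1 of them, miR-99a-5p, below the other 15 in all 3. Of all 337 miRNAs listed in jejunum, 33 lay below and 5 above the other 15 libraries in all 3. The part of these differences in the miR-31 values was not tested.

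**Figure D4:**
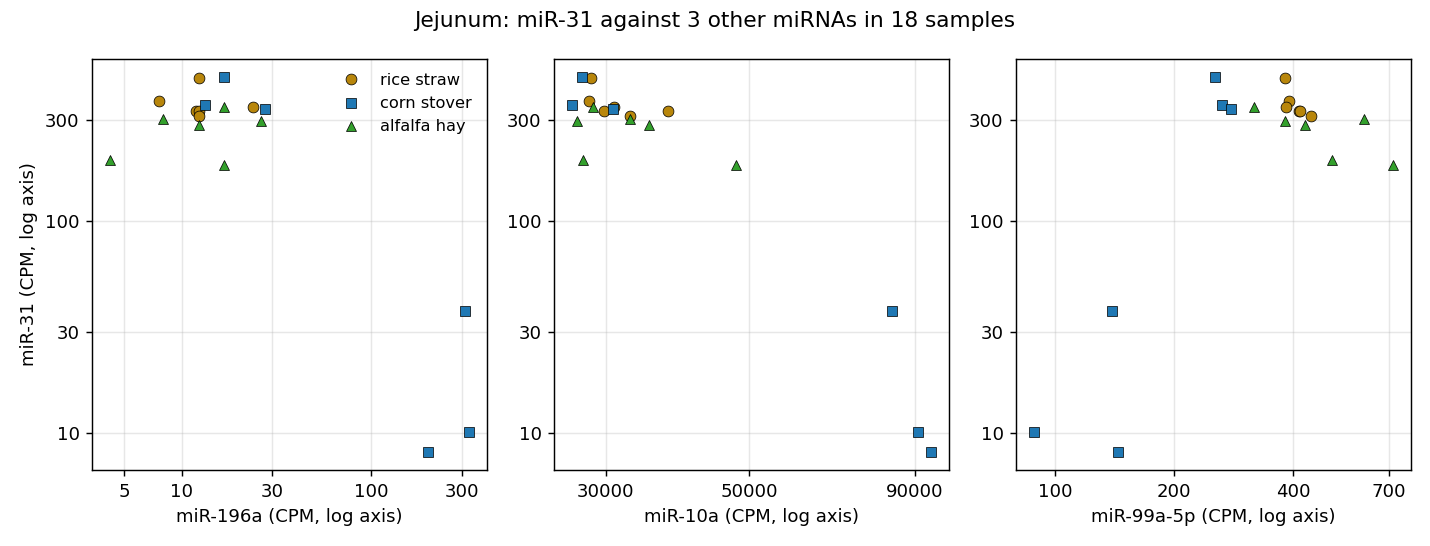
miR-31 against miR-196a, miR-10a and miR-99a-5p in the 18 jejunum samples, all in CPM on log axes, with points by diet. The 3 corn stover samples with miR-31 between 8.13 and 37.7 CPM have miR-196a of at least 197 CPM, miR-10a of at least 83090 CPM and miR-99a-5p of at most 144 CPM, apart from the other 15 on all 3 axes.

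With all 18 jejunum samples, rice straw minus corn stover was 2.21 ± 0.77 in miR-31 and corn stover minus alfalfa hay -1.74 ± 0.77 (log2, SE), and the F test over the diets did not pass (limma, adjusted p = 0.0731), where 23.8% of 336 miRNAs were called. limma-voom on the recovered reads put the same test at an adjusted p of 0.0484. Without the 3 libraries with high miR-196a, rice straw minus corn stover was -0.10 ± 0.20 and corn stover minus alfalfa hay 0.56 ± 0.20 (adjusted p = 0.0874, with 3 corn stover samples left). Without them duodenum minus jejunum was -0.02 ± 0.15 (adjusted p = 0.920), jejunum minus mammary gland -0.49 ± 0.24 (adjusted p = 0.0655) and jejunum minus liver -0.98 ± 0.13 (adjusted p = 1.19e-08). The jejunum mean was then 330 ± 80.5 CPM (SD, n = 15).

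In the other 4 tissues no diet difference of miR-31 passed the limma F test. The adjusted p was 0.649 in rumen, 0.557 in duodenum, 0.874 in liver and 0.207 in mammary gland. The largest difference in rumen was 0.29 ± 0.23 for corn stover minus alfalfa hay, in duodenum 0.51 ± 0.26 for rice straw minus alfalfa hay, and in liver 0.40 ± 0.20 for rice straw minus corn stover. In mammary gland rice straw ranged from 111 to 673 CPM (median 339 CPM), corn stover from 541 to 851 CPM (median 702 CPM) and alfalfa hay from 131 to 1046 CPM (median 429 CPM). Rice straw minus corn stover was -1.05 ± 0.45 there with an interval from -1.98 to -0.12, -0.72 ± 0.33 without the libraries that stood apart and -0.12 ± 0.29 with upper-quartile scaling. The interaction of diet with rumen against mammary gland did not pass for miR-31 (limma, adjusted p = 0.323, or 0.412 without the libraries that stood apart). For rice straw minus corn stover it was -1.01 ± 0.52, mammary gland minus rumen. The interval ran from -2.06 to 0.03, so a difference of that size is not excluded. Over the alternatives this value ranged from -1.02 to -0.08.

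The members differed in how far they followed each other. Per sample, the ratio of miR-205 to miR-31 was 8.13 ± 3.79 in rumen and 7.28 ± 3.76 in mammary gland (SD, n = 18 each), with ranges of 4.55 to 19.8 and 2.62 to 15.02 that largely overlapped. In duodenum the ratio was at most 0.0116, and in liver at most 1.74, in alfalfa hay replicate 2. Across the 18 samples of a tissue, 4 relations between the log2 levels of the members were computed, each with a two-sided permutation test.

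In rumen Pearson r was 0.06 (permutation p = 0.803, adjusted 0.803) and Spearman rho 0.18 (p = 0.471, adjusted 0.628), and r was 0.22 without the 2 samples farthest from the median in miR-205, so no relation was found. In mammary gland r was 0.66 (permutation p = 0.00310, adjusted 0.0124) and rho 0.46 (p = 0.0580, adjusted 0.116), and centred on the diet means r was 0.69. Without the 2 samples farthest from the median in miR-205, r was 0.23 (permutation p = 0.397), and without the 4 libraries that stood apart it was 0.27 (permutation p = 0.351), so the relation did not hold without those samples. With all 18 samples and upper-quartile scaling r was 0.27 as well (permutation p = 0.277), so the relation also depends on the scaling. The same 4 libraries had less of the miR-200 family list, at 10598 to 31854 CPM in sum against 32549 to 67448 CPM. Of its 5 miRNAs, 2 lay below the other mammary libraries in all 4. The immune list was lower too, at 885 to 2223 CPM against 3470 to 9904 CPM, with 2 of 6 below. The blood cell list was higher, at 3251 to 4241 CPM against 1070 to 2938 CPM, with 1 of 3 above. Of all 328 miRNAs listed, 70 lay below and 2 above the other mammary libraries in all 4. These libraries were also the shallowest of the tissue. The part of these differences and of depth in the relation was not tested. In duodenum r was 0.55 (permutation p = 0.0107, adjusted 0.0215) and rho 0.61 (p = 0.00926, adjusted 0.0370), 0.55 without the 2 farthest samples (permutation p = 0.0168, adjusted 0.0670), and 0.41 after centring on the diet means (permutation p = 0.0910), where miR-205 had 1 to 71 reads. In liver r was 0.15 (permutation p = 0.575, adjusted 0.766) and rho 0.05 (p = 0.831, adjusted 0.831), and r was -0.27 without the 2 farthest samples and -0.19 without alfalfa hay replicate 2.

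**Figure D5:**
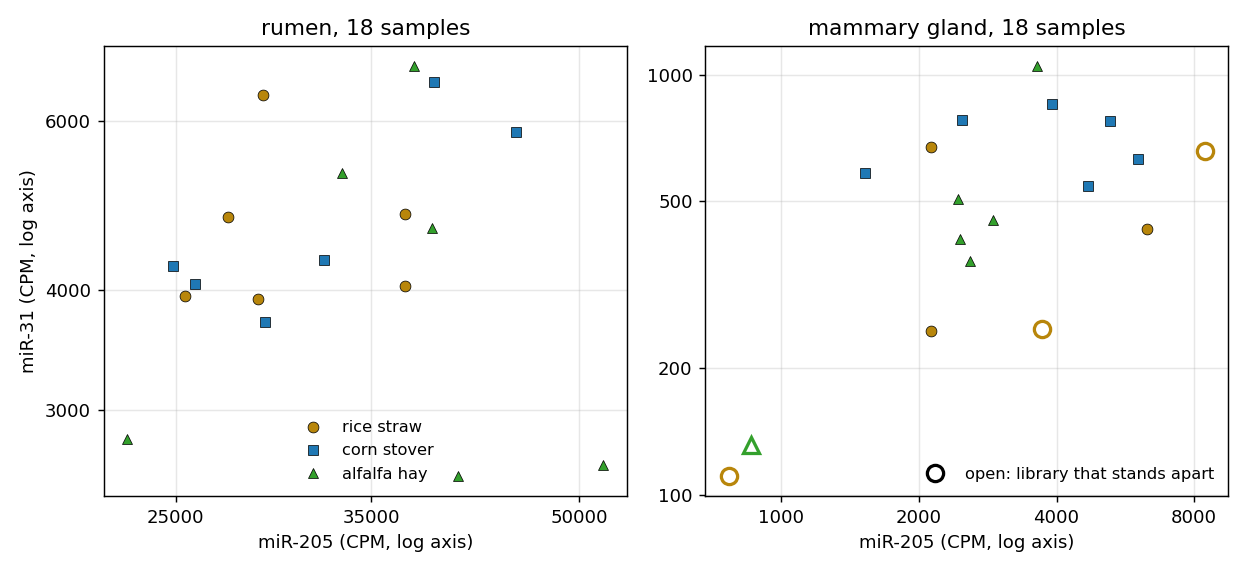
miR-31 against miR-205 in the 18 rumen samples (left) and the 18 mammary samples (right), in CPM on log axes, with points by diet and open points for the 4 mammary libraries that stood apart in other miRNAs. In rumen r is 0.06 on the log2 scale, and in mammary gland r is 0.66 with all 18 samples and 0.27 without the open points.

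Other epithelial miRNAs were set beside the members from lists chosen with earlier results of these data known. The 8 epithelial miRNAs (the miR-200 family with miR-141 and miR-429, and the miR-96, miR-182 and miR-183 cluster) ordered the tissues unlike miR-205. Against liver all 8 were higher in rumen, where 54.9% of all miRNAs tested were higher, and all 8 in mammary gland, where 35.9% of all tested were higher and 29.1% lower than in liver. Between rumen and mammary gland 1 was higher in rumen, miR-429 at 1.97 ± 0.28, and 5 were higher in mammary gland (43.9% and 28.1% of all miRNAs tested were higher and lower in rumen), with rumen minus mammary gland at -1.41 ± 0.17 for miR-200c and -1.29 ± 0.25 for miR-141. Their median difference was -0.48 against 0.33 over all 303 miRNAs tested, where miR-205 stood at 3.50. Between rumen and duodenum 7 of the 8 were higher in rumen (45.2% of all tested), with a median of 0.79 against 0.16 over all 314, and miR-205 stood at 13.71.

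Of the 10 miRNAs other than the members that are associated with keratinocytes, 9 were tested between rumen and mammary gland, where 6 were higher and 2 lower in rumen, beside 43.9% higher and 28.1% lower of all miRNAs tested. The higher ones included miR-149-5p at 3.38 ± 0.30 and miR-210, a miRNA induced by hypoxia, at 3.05 ± 0.18, and the lower ones were miR-99a-5p at -1.73 ± 0.25 and miR-125b at -0.73 ± 0.26. Between rumen and duodenum 7 of 10 were higher in rumen and 2 lower (45.2% and 30.6% of all tested), and between rumen and liver 5 of 9 were higher and 1 lower (54.9% and 29.6% of all tested), a share higher near that of all miRNAs. The median differences were 1.20 against mammary gland, 0.72 against duodenum and 1.12 against liver, beside 0.33, 0.16 and 0.43 over all miRNAs tested. miR-210 and miR-149-5p are also among the miRNAs picked as enriched in rumen in these data, so their direction is no independent evidence.

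By likeness over the means of tissue and diet, miR-205 was followed most closely by let-7b (Pearson r = 0.97 over 12 means, 290 miRNAs compared), miR-532 (0.96), let-7a-5p (0.95), miR-2299-5p (0.94) and miR-27a-5p (0.93). Their levels differed far less between tissues than that of miR-205. let-7b had a mean of 7536 CPM in rumen, 6283 CPM in mammary gland, 2673 CPM in duodenum and 2637 CPM in liver. For miR-31 over 15 means and 288 miRNAs, the closest were miR-3431 (r = 0.93), miR-210 (0.91), miR-452 (0.89), miR-27b (0.89) and miR-149-5p (0.88). miR-3431 had a mean of 126 CPM in rumen against 21.7 to 43.7 CPM in the other 4 tissues. The means of a tissue come from the same libraries for every miRNA, and these correlations are a description with no test. The liver mean with alfalfa hay includes replicate 2, at 1525 CPM of miR-205. The jejunum mean with corn stover includes the 3 libraries with high miR-196a. The correlations were not repeated without these libraries.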

How the data were processed

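Small RNA of 90 samples was analysed. The authors sequenced 50 bp reads, filtered them with CASAVA 1.8 (version also in the submitters' processing notes), aligned reads over 15 nt to the bovine miRNA precursors of miRBase 22 with sRNAbench, and deposited, per sample, the CPM of each miRNA. The genome build is not given in the sources used here. The paper calls the deposited values raw counts, but they were not whole numbers and each sample summed to nearly the CPM total, so they were used as CPM, with no further scaling.

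Groups were compared with limma 3.58.1 in R 4.3.3 on log2(CPM + 1) (lmFit, eBayes with trend, Benjamini-Hochberg, threshold 0.05) over miRNAs that all tissues of the fit list, keeping those where at least 1 of its tissues had over 50% of samples above 1 CPM. Pairs of tissues used 36 samples and diets within a tissue 18. The tissues came from the same cows, but no source ties a replicate number to a cow, so samples entered the fits as independent. All values of a sample were whole multiples of a step taken as 1 read (100% within 0.05 reads), which gave the depths. The alignment allowed multiple mappings, so a read could count for several close family members, such as miR-10a and miR-10b.

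The members and lists were chosen with earlier results of these data known. The miRNAs named are the members, the 5 most alike to each, the marker lists and, chosen after their values were seen, miR-196a, miR-10a and miR-10b. Single samples were found by the gap to the nearest of the 6 in a group over the range. The alternatives tried were pseudocounts of 0.1 and 5 CPM, other scalings, no filter, a replicate block, leaving out libraries, single diets and limma-voom. Python 3.11.15, numpy 2.4.6, pandas 2.3.3 and matplotlib 3.10.9 were also used.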

Additional observations from a re-analysis of the deposited data

Results flagged for a closer look

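Of the 27 groups of 6 samples by member, tissue and diet, 5 held a sample whose gap to its nearest neighbour passed the 95% critical value of Dixon as a share of the group's range, and chance alone gives about 1 in 20 groups. The liver sample had been looked for by its high miR-205, so its place here is a description and is not set against that rate. The 5 were miR-205 in liver, alfalfa hay replicate 2, at 1525 CPM against 0 to 2.05 CPM in the other 5, and miR-205 in duodenum, alfalfa hay replicate 3, at 3.96 CPM against 0.0990 to 0.341 CPM. The other 3 concerned miR-31: rumen, rice straw replicate 2, at 6388 CPM against 3913 to 4799 CPM, duodenum, corn stover replicate 4, at 210 CPM against 346 to 393 CPM, and jejunum, rice straw replicate 4, at 476 CPM against 315 to 370 CPM. On log2(CPM + 1) the rumen and jejunum samples were not past that value, and miR-205 in mammary gland, alfalfa hay replicate 1, was, at 860 CPM against 2430 to 3633 CPM. The 3 low jejunum values of miR-31 with corn stover were not found by this rule, because they shared one group.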

How the results depend on the processing

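Of 27 member differences, 18 kept their direction and their side of the threshold under all the alternatives run, and every difference of miR-205 between tissues other than duodenum against liver was among them. For miR-31, duodenum minus jejunum turned to -0.025 without the jejunum libraries with high miR-196a and to -0.034 with alfalfa hay cows alone. For miR-205, duodenum minus liver was 1.05 with rice straw and -1.86 with corn stover cows alone. Duodenum minus mammary gland in miR-31 (main -0.52, adjusted p from 5.83e-05 to 0.808 over its alternatives) lost its call at -0.50 without the single samples, at -0.52 with all 90 samples in 1 fit, at -0.68 with alfalfa hay cows and turned to 0.14 with rice straw cows. Jejunum minus mammary gland in miR-31 was -0.49 without the libraries with high miR-196a, -0.64 with alfalfa hay and 0.12 with rice straw cows. Liver minus mammary gland in miR-31 passed at 0.80 and 0.57 with the scalings, at 1.15 with rice straw cows and at 0.49 when adjusted over all 10 pairs, and was -0.30 with corn stover cows. Among diets, miR-205 passed without the single samples in duodenum (1.48) and liver (-2.76, rice straw minus corn stover, also without the library that stood apart). In miR-31 of jejunum, rice straw minus corn stover passed at 2.34 with limma-voom and was -0.10 without the libraries with high miR-196a, and in miR-205 of mammary gland corn stover minus alfalfa hay was -0.010 with upper-quartile scaling. The relation of the members lost its call at r = 0.41 (centred) and 0.49 (upper-quartile) in duodenum, at 0.27 in mammary gland both with upper-quartile scaling and without the libraries that stood apart, and was -0.19 in liver without replicate 2 of alfalfa hay. Beyond fewer samples or miRNAs in a fit, the cause was not tested.

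Counts of called miRNAs changed over 1.5-fold for duodenum against jejunum (80 to 29 with all 90 samples, 2 with rice straw and 44 with alfalfa hay cows), for mammary gland with rice straw cows (139 against duodenum, 116 against liver) and alfalfa hay cows (123 against liver), and for diets: 3 in rumen and 1 each in duodenum and liver without the single samples, 1 in liver without the library apart, 35 in jejunum without high miR-196a, and 0 and 19 with pseudocounts of 0.1 and 5 CPM and 61 without the libraries apart in mammary gland, where the main count was 12. The interaction gave 14 (pseudocount 0.1), 14 and 13 (upper-quartile, trimmed mean) and 46 (libraries apart) against 26. Samples of one number did not all deviate together (18 pairs per pair of tissues, mean correlation 0.02 to 0.23). The mean was positive in every pair of tissues, and largest for duodenum and jejunum (0.23, with 14 of 18 over 0.1). Pairing is therefore not excluded, and the main fits left it out because no source ties a number to a cow. With the replicate block no member call changed. Between tissues the block joined samples of the same diet and number, and miR-205 in rumen minus mammary gland kept 3.50. For diets within a tissue it joined samples of the same number across diets, which came from different cows, so it is no pairing by cow. Diets then gave 3 called in rumen and 55 in mammary gland. The count model on reads was not run, since the values are CPM, and limma-voom stood in for it, chosen after seeing the data, as were the alternatives on libraries apart and on miR-196a. The fit of all 90 samples gives no miR-205 value. Depth limits miR-205 in duodenum and liver, where 7 and 6 of 18 samples had 3 reads or fewer.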
